A study of Mus musculus with 4 samples.

Results

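In a library of STAT5 knockout (STAT5 KO) blood progenitors, 247 cells still carried at least 2 transcripts of Stat5a and Stat5b together. They are called retaining cells here, and they were 3.45% of the 7158 STAT5 KO cells that passed the cell filter and 247 of 12355 cell barcodes in the 4 libraries of the study. The cells are KLS cells, bone marrow cells of the mouse that lack lineage markers and carry c-Kit and Sca-1, a fraction that holds hematopoietic stem cells and multipotent progenitors. A retaining cell had at least 500 detected genes, at most 10% mitochondrial UMIs (unique molecular identifiers, 1 per captured transcript), a barcode absent from both stromal libraries, and at least 2 Stat5a plus Stat5b UMIs. The members were therefore chosen by their Stat5 counts, and the Stat5 levels below are a description of that choice.

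The STAT5 KO mice had the genotype Vav1-Cre/+STAT5abfl/fl, in which a Cre recombinase under the blood-active Vav1 promoter removes floxed Stat5a and Stat5b. The control mice, Vav1-Cre/+STAT5ab+/+, carried the same transgene and intact Stat5 genes, so both groups carried Cre. KLS cells came from mice aged 8 to 12 weeks. The labels name 4 mice without saying whether this is per genotype, and cells of single mice cannot be told apart. Each genotype gave 1 KLS library, so there was no replicate and no test. All intervals are 95% intervals for counting error, and they do not cover the spread between mice or preparations. Those of levels and ratios count pooled UMIs and also leave out the spread between cells.

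STAT5A and STAT5B are closely related transcription factors. Janus kinases bound to cytokine receptors phosphorylate them, and the active dimers bind DNA and switch on genes that include the feedback inhibitors Cish and Socs2. In bone marrow this pathway is known for maintaining stem cells and for early blood development. Cre deletion in a floxed line can leave some cells with an intact allele, and transcripts of the floxed genes are 1 way to find such cells.

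Retaining cells were compared with 1229 STAT5 KO cells without a Stat5 UMI, chosen as up to 5 per retaining cell with total UMIs within 10%. Median depth was 13329 UMIs in retaining cells and 13283 UMIs in the matched 0-UMI cells, against 10042.5 UMIs in all 6660 STAT5 KO cells with 0. As a reference, 1741 control cells had at least 2 Stat5 UMIs, at a median of 18989 UMIs, and 244 of them matched the retaining cells 1 to 1 in depth (median 13468.5 UMIs). A second control contrast set 557 control cells with at least 2 against 557 with 0, paired by depth (medians of 10648 and 10661 UMIs). The median mitochondrial share was 2.99% in retaining cells, 2.90% in matched 0-UMI cells and 4.45% in the depth-matched control cells. The highest doublet scores marked 6.88%, 6.18% and 2.05% of these groups. The number marked was preset from the number of barcodes, at 6.005% of the STAT5 KO and 2.989% of the control KLS library. These shares therefore do not measure a difference in doublets between the libraries. Of the retaining barcodes, 1 was also present in the control KLS library, with 9691 UMIs in the STAT5 KO library and 23799 UMIs in the control library. Without the barcodes that the libraries share, the share of retaining cells was 3.44%, and the log2 ratios given below for Cish and Socs2 were 2.52 and 4.51, the same to 2 decimals.

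Most STAT5 KO cells had no Stat5 transcript, and those that had any fell off steeply with the number per cell. A count of 0 was found in 6660 cells (93.0%, 92.4 to 93.6%), a count of 1 in 251 cells (3.51%) and a count of 2 in 134 cells (1.87%). A count of 3 was found in 70 cells, of 4 in 25 cells, of 5 in 13 cells and of 6 or more in 5 cells, with a highest count of 11. Control cells held 0 in 20.4%, 1 in 25.1% and at least 2 in 54.5% of 3193 cells (52.8 to 56.3%), with a highest count of 17. The share of retaining cells was 3.45% with an interval of 3.04 to 3.90%. It moved with depth in both libraries. In STAT5 KO it was 0.787% under 5000 UMIs, 3.15% from 5000 to 10000, 3.84% from 10000 to 20000 and 6.66% from 20000 UMIs. In control it was 17.9%, 31.1%, 52.6% and 79.4% in the same bands. Free RNA in the droplets was not corrected for, and its part in the Stat5 counts of STAT5 KO cells was not tested.

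**Figure D1:**
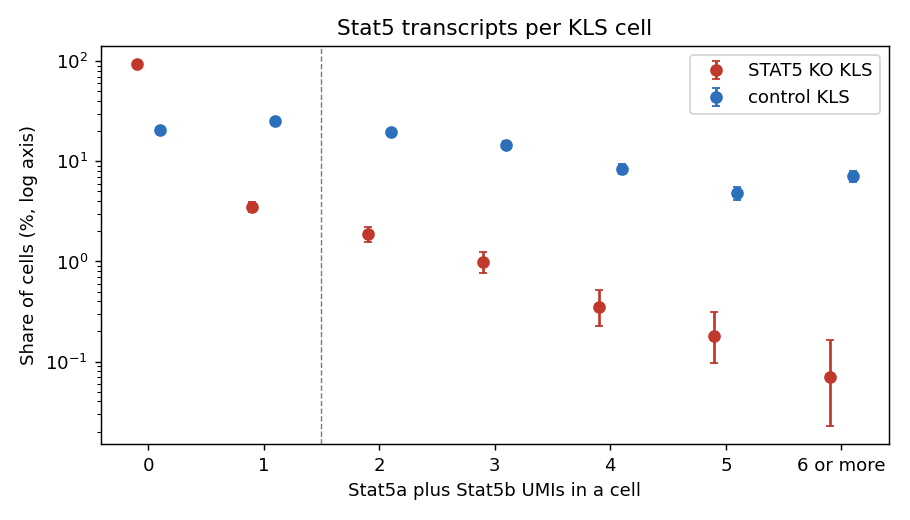
Share of KLS cells (%, log axis) by the number of Stat5a plus Stat5b UMIs in a cell, for the STAT5 KO and control libraries, with exact 95% binomial intervals. The dashed line marks the threshold of 2 UMIs. The STAT5 KO points drop from 93.0% at 0 to 0.0699% at 6 or more, while the control points stay between 4.79% and 25.1%.

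Retaining cells held transcripts of both Stat5 genes, with relatively less Stat5b than control cells chosen by the same threshold. Stat5a (ENSMUSG00000004043, chromosome 11, 100859351 to 100885169, GENCODE M21 on GRCm38) stood at 111.0 CPM (UMIs per 1000000 UMIs of the group; 100.5 to 122.2) in retaining cells and at 113.4 CPM (102.8 to 124.8) in depth-matched control cells. Stat5b (ENSMUSG00000020919, chromosome 11, 100780731 to 100850724) stood at 71.9 CPM (63.5 to 81.1) and 94.8 CPM (85.1 to 105.2). The log2 ratio of retaining to matched control cells was -0.03 (-0.23 to 0.17) for Stat5a and -0.40 (-0.63 to -0.16) for Stat5b. Stat5a gave 60.7% of the Stat5 UMIs in retaining cells (56.9 to 64.4%) and 54.5% in matched control cells (50.9 to 58.0%). Transcripts of both genes were found in 151 of 247 retaining cells (61.1%, 54.7 to 67.2%) and in 66.8% of matched control cells (60.5 to 72.7%). Counts of 4 or more were less frequent in retaining cells, at 17.4% (12.9 to 22.7%) against 28.7% (23.1 to 34.8%). These levels rest on a threshold applied alike to both libraries. The summed Stat5 level was 0.08 higher on the log2 scale than in all control cells with at least 2 UMIs and 0.20 lower than in the depth-matched ones (log2 ratio -0.20, -0.35 to -0.05), so the sign turned with the depth of the reference.

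The 2 feedback inhibitors, which the choice of cells did not use, were both higher in retaining cells. Cish encodes a SOCS-family protein that binds phosphorylated cytokine receptors and is a textbook STAT5 target. It stood at 22.4 CPM (17.8 to 27.7, 83 UMIs) in retaining cells, at 3.91 CPM (3.05 to 4.93) in matched 0-UMI cells and at 17.01 CPM (13.1 to 21.8) in depth-matched control cells. The retaining cells lay 5.72-fold above the 0-UMI cells of the same library (log2 ratio 2.52, 2.04 to 2.99). Against matched control cells the log2 ratio was 0.39 (-0.10 to 0.89), no difference beyond counting error. With 10 CPM added to both sides it was 0.26, and 0.54 against all 1741 control cells with at least 2. After thinning each cell to 6200 UMIs, Cish was detected in 14.9% of retaining cells (10.5 to 20.2%). In all control cells with at least 2 this share was 7.09% (5.92 to 8.41%). The comparison with control thus depended on the reference and measure. In the control library Cish was 14.1 CPM in cells with at least 2 Stat5 UMIs and 15.5 CPM in cells with 0 (log2 ratio -0.14, -0.55 to 0.27). Cish lies on chromosome 9 at 107296026 to 107302784 (plus strand, GENCODE M21).

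The promoter of Cish is printed because no RefSeq window was found for Socs2, the other feedback inhibitor. STAT5 dimers are known to bind the sequence TTCNNNGAA. The RefSeq window (GRCm38.p6, chr9:107296409-107296708, plus strand) runs from 250 bases before to 50 bases after the annotated start, and capitals mark matches to TTCNNNGAA, a motif that reads alike on both strands.
Cish: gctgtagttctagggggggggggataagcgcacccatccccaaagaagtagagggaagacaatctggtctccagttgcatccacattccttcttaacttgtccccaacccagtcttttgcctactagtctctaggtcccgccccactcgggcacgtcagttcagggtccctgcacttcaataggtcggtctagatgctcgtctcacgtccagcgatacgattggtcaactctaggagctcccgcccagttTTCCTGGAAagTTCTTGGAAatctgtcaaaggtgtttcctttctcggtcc
The window holds 2 matches, which begin at bases 1 and 12 counted from the RefSeq start. The whole window lies inside the GENCODE span of Cish given above, so these positions do not hold for the GENCODE gene start. Of 32851 RefSeq windows of this length, 8.30% hold at least 1 match and 0.457% hold at least 2. Windows were found for 12 of 18 listed STAT5 target genes, and 3 of these (Bcl6, Cish and Socs3) held a match in at least 1 window. This is a count of genes, whereas 8.30% is a share of windows. A match is a description of the letters and not evidence of binding.

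Socs2, which encodes an inhibitor of growth hormone receptor and other cytokine receptor signalling, differed more than Cish. It stood at 57.6 CPM (50.2 to 65.9, 214 UMIs) in retaining cells and at 2.53 CPM (1.85 to 3.38) in matched 0-UMI cells, a 22.7-fold difference (log2 ratio 4.51, 4.04 to 5.0). In depth-matched control cells Socs2 was 9.45 CPM (6.58 to 13.1), so retaining cells also exceeded the control reference, by a log2 ratio of 2.61 (2.09 to 3.17). Within the control library the level was 10.2 CPM with at least 2 Stat5 UMIs and 11.1 CPM with 0 (log2 ratio -0.12, -0.61 to 0.36). Socs2 was detected in 43.3% of retaining cells (107 of 247, median 13329 UMIs), in 2.44% of matched 0-UMI cells (median 13283 UMIs) and in 9.94% of control cells with at least 2 Stat5 UMIs (median 18989 UMIs). After thinning each cell to 6200 UMIs, which left out 25 retaining cells, 125 matched 0-UMI cells and 34 control cells, the shares were 28.8% (23.0 to 35.3%), 1.18% (0.628 to 2.01%) and 4.45% (3.52 to 5.54%). The same thinning gave Cish shares of 14.9%, 2.81% and 7.09%, against 25.1%, 5.04% and 19.5% unthinned. The tenth of retaining cells with most Socs2 UMIs, 25 cells, held 45.3% of them.

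Of 18 listed STAT5 target genes 17 had at least 20 UMIs in the 2 groups of STAT5 KO cells together. On the log2 scale with 10 CPM added to both sides, which understates the change of low genes, 6 of these 17 were more than 1.5-fold higher in retaining cells and 0 were more than 1.5-fold lower. Over all 11843 genes with 20 UMIs, 2.85% were higher and 1.24% lower by that measure. The list's median was 0.08 against 0.02 for all genes. The genes past 1.5-fold were Socs2 (2.43), Cish (1.22), the D cyclin Ccnd2 (0.82), the survival gene Bcl2l1 (0.75), Id1 (0.75) and the kinase Pim2 (0.72). Ccnd2 stood at 388.9 CPM in retaining cells, 215.6 CPM in 0-UMI cells and 261.9 CPM in matched control cells. Bcl2l1, which encodes BCL-XL, stood at 24.2, 10.4 and 14.8 CPM in the same order. Other textbook targets did not move past 1.5-fold: Pim1 (-0.05), Ccnd1 (0.05), Mcl1 (0.08), Osm (0.02), Socs3 (-0.06), Myc (-0.30) and Bcl2 (-0.45). In the control contrast 0 of 16 measured targets were past 1.5-fold in either direction, where 0.295% of 11521 genes were higher and 0.182% lower, and the list's median was -0.06.

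Among receptors and kinases upstream of STAT5, 3 of 16 measured genes were more than 1.5-fold higher and 2 lower, with a median of -0.02. Beside this and the other lists of this paragraph stand 2.85% higher and 1.24% lower over all 11843 genes. Epor, the erythropoietin receptor, and Ghr, the growth hormone receptor, were among those on the higher side (0.65 and 0.61 with 10 CPM added). Flt3 and Il7r, receptors of early lymphoid progenitors, were lower (-1.70 and -0.67). The Janus kinase genes Jak1, Jak2, Jak3 and Tyk2 lay between -0.13 and 0.13. None of the 5 other STAT genes measured was past 1.5-fold (median 0.03, from -0.13 for Stat6 to 0.25 for Stat4). Of 13 measured genes that flank the Stat5 locus 1 was past 1.5-fold, Cavin1 at 1.56, and the median was -0.08. Of 10 measured BCL2 family genes only Bcl2l1 was past 1.5-fold, and the median was 0.05.

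Across all genes with at least 100 UMIs, 257 of 9846 were more than 1.5-fold higher in retaining cells (2.61%) and 147 lower (1.49%). In the control contrast 31 of 9390 were higher (0.33%) and 18 lower (0.192%). The 2 contrasts differ in cell number and were not tested against each other. By the ratio with 10 CPM added, the 10 genes furthest above the 0-UMI cells were, in order, Vwf, Socs2, Aldh1a1, Cavin2, Nupr1, Tgm2, Mycn, Clu, Mmrn1 and Slamf1. The 10 genes furthest below them were Dntt, Flt3, Ccl3, Satb1, Irf8, Arpp21, Slc16a11, Wfdc17, Clec12a and Cd69.

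Vwf, which encodes von Willebrand factor and marks stem cells biased to platelets, came first by the ratio with 10 CPM added, while Socs2 had the larger plain ratio. It stood at 115.3 CPM (104.6 to 126.7) in retaining cells, 7.27 CPM (6.08 to 8.62) in matched 0-UMI cells and 9.99 CPM (7.03 to 13.8) in depth-matched control cells. The retaining cells were 15.9-fold above the 0-UMI cells (log2 ratio 3.99, 3.70 to 4.28). Aldh1a1, a retinaldehyde dehydrogenase, stood at 80.5, 7.21 and 9.72 CPM in these 3 groups. Cavin2, a coat protein of caveolae, stood at 78.4, 7.65 and 11.3 CPM. Like Socs2, these genes were higher in retaining cells than in either reference, and low in both references.

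Retaining cells were likewise highest for Nupr1, a stress-induced nuclear protein, at 59.8, 4.63 and 5.94 CPM. This held for Tgm2, a transglutaminase, at 60.9, 5.29 and 15.4 CPM, and for the chaperone gene Clu at 51.7, 4.74 and 3.78 CPM. Slamf1, which encodes the stem cell surface marker CD150, stood at 43.9, 4.35 and 6.75 CPM. Mycn, a MYC family factor, stood at 141.6 CPM (129.8 to 154.3) in retaining cells, 25.9 CPM in 0-UMI cells and 64.0 CPM in control. Mmrn1, a platelet multimerin, stood at 66.5, 9.31 and 42.7 CPM. Each of the 10 genes was higher in retaining cells than in matched control cells, with plain log2 ratios from 0.64 (0.35 to 0.94) for Mmrn1 to 3.77 (2.99 to 4.67) for Clu. The 10 genes were picked as high in these same retaining cells, so their place above control is a description and no separate support. The intervals leave out the spread between cells. In the control contrast their log2 ratios with 10 CPM added lay between -0.26 (Clu) and 0.63 (Cavin2).

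**Figure D2:**
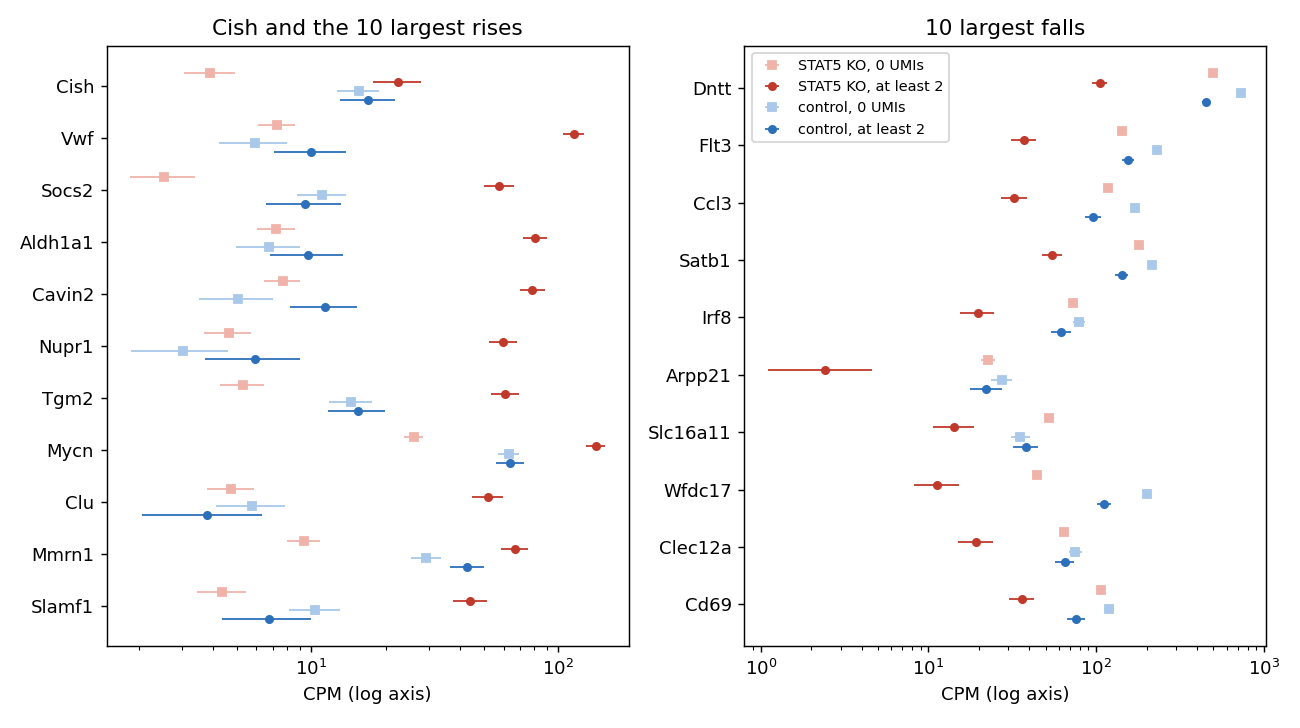
Level in CPM (log axis) of Cish and the 10 genes furthest above the 0-UMI cells (left) and of the 10 genes furthest below them (right) in 4 groups of cells: STAT5 KO cells with 0 Stat5 UMIs (matched in depth), STAT5 KO cells with at least 2, control cells with 0 (shallower, at a median of 10661 UMIs) and control cells with at least 2 (matched in depth to the retaining cells). Bars are exact 95% Poisson intervals. In retaining cells the 10 genes on the left lie above the other 3 groups, from 43.9 CPM (Slamf1) to 141.6 CPM (Mycn), and the 10 genes on the right lie below them.

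The genes lower in retaining cells included receptors, enzymes and factors of lymphoid and myeloid progenitors. Dntt, which encodes the terminal transferase of early lymphoid cells, stood at 105.3 CPM (95.1 to 116.3) in retaining cells, 498.7 CPM (488.4 to 509.0) in 0-UMI cells and 449.2 CPM (427.9 to 471.4) in matched control cells. Flt3, a receptor of multipotent and lymphoid progenitors, stood at 37.2, 143.5 and 155.0 CPM in this order. Satb1, a chromatin organiser of lymphoid cells, stood at 54.7, 179.3 and 142.3 CPM. Both references lay well above the retaining cells for these 3 genes, which were picked as low in these same cells.

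Irf8, a factor of monocyte and dendritic cell development, stood at 19.7 CPM in retaining cells, 72.6 CPM in 0-UMI cells and 61.8 CPM in control. The chemokine gene Ccl3 stood at 32.6, 117.2 and 96.1 CPM, and Arpp21 at 2.42, 22.8 and 22.1 CPM. Wfdc17 stood at 11.3, 44.7 and 111.8 CPM, Slc16a11 at 14.3, 52.7 and 38.1 CPM, Clec12a at 19.1, 64.5 and 64.8 CPM, and the activation antigen Cd69 at 36.1, 107.7 and 76.1 CPM. Of these, Ccl3, Slc16a11 and Wfdc17 lie on chromosome 11, as do Stat5a and Stat5b. The share of all ranked genes on that chromosome was not counted, and a link to the Stat5 locus was not tested. Of 13 measured genes that flank the locus, 0 were more than 1.5-fold lower, where 1.24% of all genes were. In the control contrast 9 of the 10 genes were also lower with at least 2 Stat5 UMIs, from -0.34 (Arpp21) to -0.92 (Dntt) with 10 CPM added, and Slc16a11 was at 0.05. Ighm, an immunoglobulin gene kept out of the ranking, stood at 39.6 CPM against 326.3 CPM, but 1 matched 0-UMI cell held 44.5% of the latter's UMIs. Without that cell Ighm stood at 181.5 CPM and the log2 ratio was -2.20 (-2.45 to -1.96).

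Stem cell and megakaryocyte genes were higher and lymphoid-primed genes lower in retaining cells. Of 20 stem cell genes, 17 were more than 1.5-fold higher and 0 lower than in 0-UMI cells, with a median of 0.87, whereas in the control contrast 1 was higher and the median was 0.18. Over all genes 2.85% were higher and 1.24% lower in STAT5 KO, and 0.295% and 0.182% in the control contrast. The same shares stand beside the lineage and cell cycle lists that follow. Mecom, a stem cell transcription factor, stood at 111.2 CPM in retaining cells, 45.6 CPM in 0-UMI cells and 88.6 CPM in matched control cells. Procr, the stem cell marker EPCR, stood at 24.2, 9.86 and 27.5 CPM. Fgd5 stood at 15.9, 1.60 and 7.83 CPM. The 3 genes not past 1.5-fold were Hlf (0.31, but -0.091 with 0-UMI cells weighted by their stem gene count), Ly6a (0.01) and Hoxa9 (-0.31). Hlf, a stem cell transcription factor, stood at 175.6 CPM in retaining cells, 140.2 CPM in 0-UMI cells and 297.5 CPM in control.

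Of 13 measured megakaryocyte genes, 8 were more than 1.5-fold higher and 0 lower (median 0.95), against 2 of 11 higher in the control contrast (median 0.34). Pf4, platelet factor 4, stood at 161.3 CPM in retaining cells, 64.3 CPM in 0-UMI cells and 18.1 CPM in matched control cells. Itga2b, the platelet integrin CD41, stood at 82.7, 31.5 and 47.5 CPM. Of 13 erythroid genes 6 were higher and 0 lower (median 0.26), led by the GATA cofactor gene Zfpm1 (1.17), Car2 (1.01) and Gata1 (0.87). The control contrast gave 4 of 11 erythroid genes higher (median 0.49).

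Of 14 measured lymphoid-primed genes 0 were higher and 9 lower (median -0.78), against 4 of 16 lower and 1 higher in the control contrast (median -0.41). Of 14 measured myeloid genes 0 were higher and 5 lower (median -0.33), against 6 of 14 lower in control (median -0.54). Mpo, myeloperoxidase, stood at 713.1 CPM in retaining cells, 1291 CPM in 0-UMI cells and 461.4 CPM in matched control cells. None of the 16 S phase genes was past 1.5-fold (median -0.10), and the same held for 17 G2 and mitosis genes (median -0.17). In the control contrast these lists had medians of -0.10 and 0.49.

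**Figure D3:**
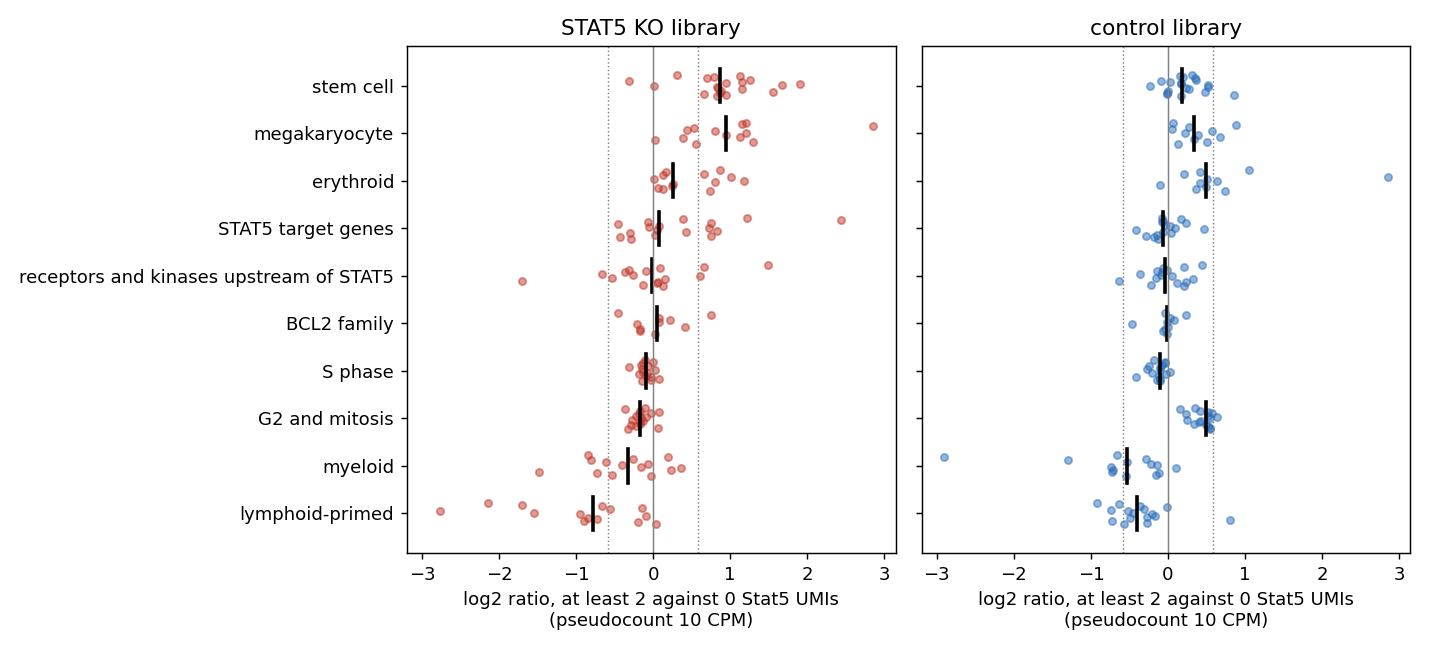
Log2 ratio (with 10 CPM added) of cells with at least 2 against depth-matched cells with 0 Stat5 UMIs, for each measured gene of 10 lists, in the STAT5 KO library (left) and the control library (right). Points are genes, black bars are list medians, and dotted lines mark 1.5-fold. In STAT5 KO the stem cell and megakaryocyte medians lie at 0.87 and 0.95 and the lymphoid-primed median at -0.78, while in control they lie at 0.18, 0.34 and -0.41.

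Cells with stem cell, Vwf or Pf4 transcripts were more frequent among retaining cells than among matched 0-UMI cells, and cells with Dntt less frequent. Transcripts of at least 2 of the stem cell genes Hlf, Mecom and Procr were found in 59.9% of retaining cells (53.5 to 66.1%), 36.0% of matched 0-UMI cells (33.4 to 38.8%) and 58.6% of matched control cells (52.1 to 64.9%). At least 2 Dntt UMIs were found in 13.8% (9.72 to 18.7%), 46.9% (44.0 to 49.7%) and 31.1% (25.4 to 37.4%). At least 2 Vwf UMIs were found in 33.2% (27.4 to 39.4%), 2.28% (1.52 to 3.28%) and 3.28% (1.43 to 6.36%), and at least 2 Pf4 UMIs in 13.4%, 3.58% and 3.69%. By the share with stem cell genes the retaining cells were near the control reference. By Vwf and Pf4 they lay above both references, and by Dntt below both.

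**Figure D4:**
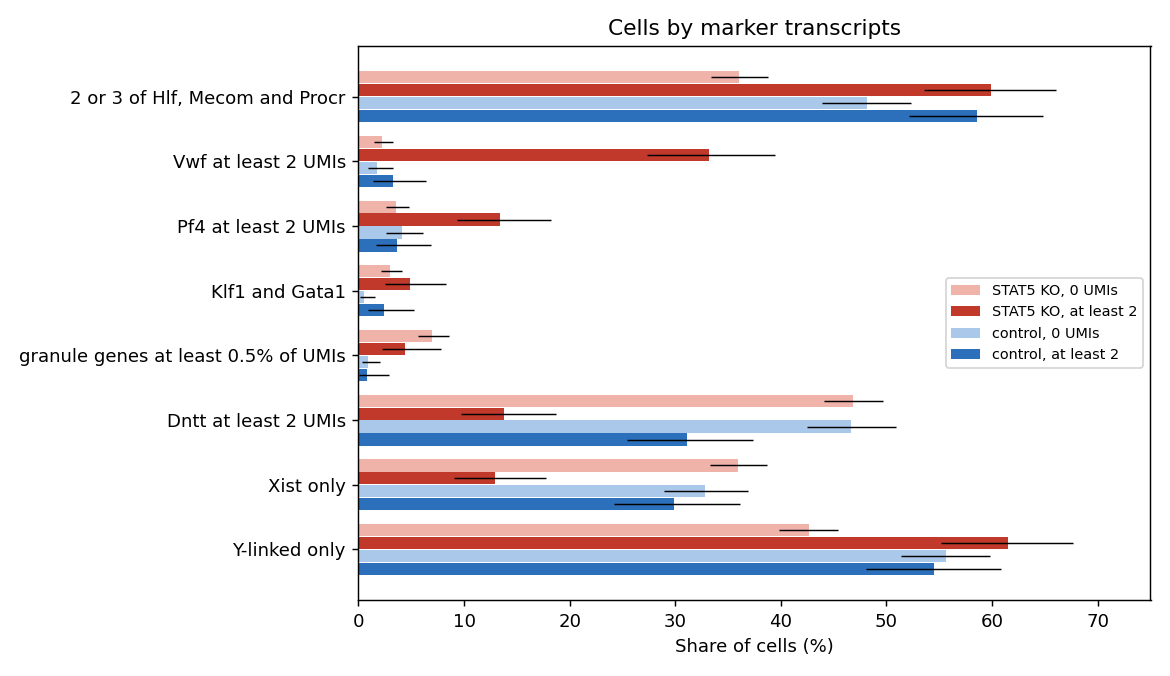
Share of cells (%) that meet 8 marker rules in STAT5 KO cells with 0 and with at least 2 Stat5 UMIs and in control cells with 0 and with at least 2, with exact 95% binomial intervals. The STAT5 KO cells with 0 and the control cells with at least 2 were matched in depth to the retaining cells, and the control cells with 0 were shallower (median 10661 UMIs). Among the groups shown, retaining cells stand apart by Vwf (33.2% against 1.80 to 3.28% in the other groups) and by Dntt (13.8% against 31.1 to 46.9%), among other rules. STAT5 KO cells with 1 Stat5 UMI, not shown, were near them at 32.7% for Vwf and 16.7% for Dntt (median 8295 UMIs).

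Read the other way, the share of retaining cells differed between states of the STAT5 KO library. It was 10.6% (7.88 to 13.9%) among 433 cells with all of Hlf, Mecom and Procr, at a median of 11291 UMIs, and 1.17% (0.808 to 1.62%) among 2918 cells with at least 2 Dntt UMIs, at a median of 11535 UMIs. In control the shares with at least 2 Stat5 UMIs in these states were 61.8% and 50.8%, at medians of 16523 and 18015 UMIs. Among STAT5 KO cells with none of the 3 stem cell genes the share was 1.68%, with 1 it was 2.42% and with exactly 2 it was 4.94%. It was 10.6% (7.44 to 14.6%) among 310 cells with at least 2 Pf4 UMIs (median 11265.5 UMIs). It was 8.45% (4.44 to 14.3%) among 142 cells with Klf1 and Gata1 (median 17594.5 UMIs) and 3.31% (1.67 to 5.85%) among 332 cells with at least 0.5% of their UMIs from 4 granule genes (median 16397 UMIs). Of these gates the one with Dntt held the smallest share. In control the shares with at least 2 Stat5 UMIs were 70.1% for Pf4, 87.3% for Klf1 and Gata1 and 63.0% for granule genes, at medians of 19026, 24803 and 26235.5 UMIs. Among 303 cells with at least 2 Vwf UMIs the share was 27.1% (22.1 to 32.4%), and among 326 cells with a Socs2 UMI it was 32.8% (27.7 to 38.2%), at medians of 10223 and 10229 UMIs. The last pair of gates uses genes picked for their difference in the contrast itself, so these shares are a description.

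Cells from female and male mice were unequally represented. Cells with Xist, the transcript of the inactive X chromosome, and no transcript of 4 Y-linked genes made up 13.0% of retaining cells (9.03 to 17.8%), 36.0% of matched 0-UMI cells and 29.9% of matched control cells. Cells with Y-linked transcripts and no Xist made up 61.5%, 42.6% and 54.5%. The share of retaining cells was 1.27% (0.870 to 1.79%) among 2521 STAT5 KO cells with Xist only and 4.93% (4.19 to 5.76%) among 3082 with Y-linked transcripts only. Single mice were not labelled, so sex and mouse cannot be told apart. The contrast was therefore repeated within each kind of cell, an alternative chosen after seeing the data.

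Among cells with Xist only, 32 retaining cells were set against 442 with 0. Socs2 stood at 67.5 and 1.88 CPM (log2 ratio 5.17, 4.16 to 6.27), Cish at 33.8 and 3.61 CPM (3.23, 2.18 to 4.23) and Vwf at 195.9 and 7.84 CPM (4.64, 4.12 to 5.17). Among cells with Y-linked transcripts only, 152 retaining cells were set against 524. Socs2 stood at 65.2 and 2.33 CPM (4.81, 4.08 to 5.63), Cish at 24.5 and 3.83 CPM (2.68, 1.99 to 3.39) and Vwf at 119.3 and 6.43 CPM (4.21, 3.76 to 4.69). Dntt was lower in both, with log2 ratios of -2.48 (-2.93 to -2.07) and -3.28 (-3.57 to -3.01). All 4 genes kept the direction of the whole contrast in both kinds of cell. The subsets are parts of that contrast, and Socs2, Vwf and Dntt are among its largest differences. The kept direction is therefore a description and no separate support. Xist and Y-linked transcripts occurred together in 12.1% of retaining cells and 11.2% of matched 0-UMI cells. Without the cells marked as doublets, 230 against 1153, the log2 ratio was 4.41 (3.93 to 4.91) for Socs2, 2.52 (2.03 to 3.02) for Cish and -2.49 (-2.66 to -2.32) for Dntt.

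The contrast was also repeated within stem cell gene counts. Among cells with 2 or 3 of Hlf, Mecom and Procr, 148 retaining against 443 0-UMI cells, Socs2 stood at 69.2 and 5.18 CPM (log2 ratio 3.74, 3.22 to 4.29), Cish at 25.03 and 5.45 CPM (2.20, 1.60 to 2.82) and Aldh1a1 at 87.0 and 9.94 CPM (3.13, 2.74 to 3.53). Among cells with 0 or 1 of them, 99 against 786, Socs2 gave a log2 ratio of 5.67 (4.58 to 6.95), Cish 2.63 (1.79 to 3.44) and Aldh1a1 3.69 (3.20 to 4.19). Dntt gave -1.28 (-1.46 to -1.11) with 2 or 3 and -3.25 (-3.57 to -2.95) with 0 or 1. Pf4 gave 0.48 (0.28 to 0.67) with 2 or 3 and 2.28 (2.06 to 2.50) with 0 or 1. All 5 genes kept their direction at both levels of stem cell genes, which again is a description of parts of the same contrast. The log2 ratios of Socs2, Dntt and Pf4 were smaller in size among cells with more of them. Their counting intervals did not overlap, while those of Cish and Aldh1a1 did. These intervals leave out the spread between cells, so a difference between the 2 levels was not tested.

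**Figure D5:**
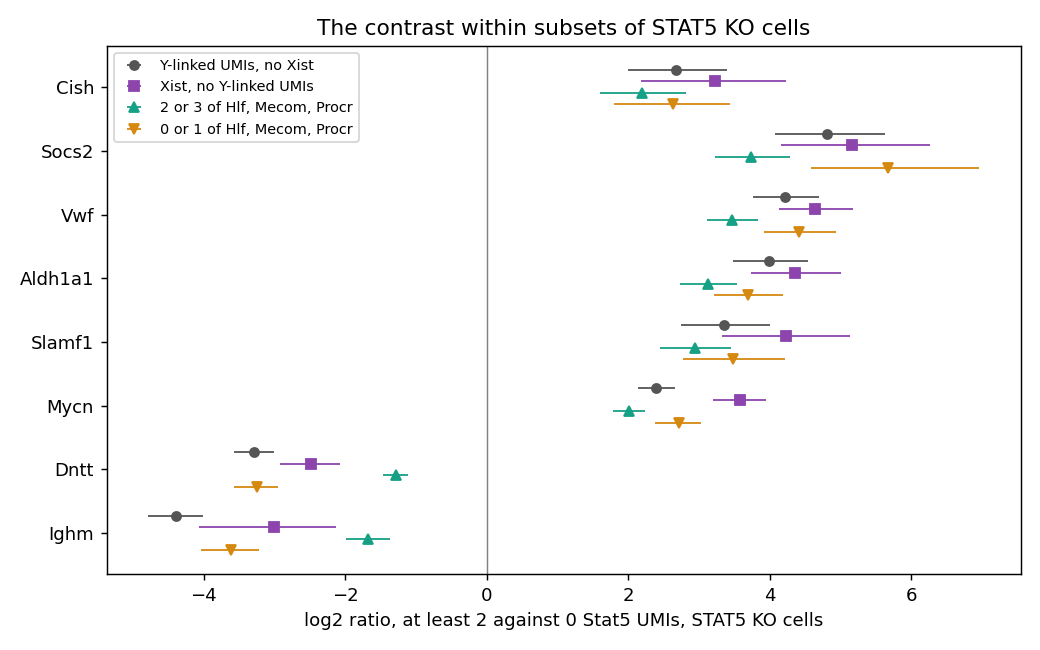
Plain log2 ratio of STAT5 KO cells with at least 2 against depth-matched cells with 0 Stat5 UMIs for 8 genes, within cells with Y-linked transcripts only, with Xist only, with 2 or 3 of Hlf, Mecom and Procr, and with 0 or 1 of them. Bars are exact 95% counting intervals. Cish, Socs2, Vwf, Aldh1a1, Slamf1 and Mycn lie to the right of 0 and Dntt and Ighm to the left in all 4 subsets.

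Vwf-positive cells without Stat5 transcripts existed too, and this division was chosen after the level of Vwf was seen. Of STAT5 KO cells with at least 2 Vwf UMIs, 82 were retaining cells (median 14485.5 UMIs) and 139 had 0 Stat5 UMIs (median 9624 UMIs). Between these, Socs2 stood at 83.3 and 58.3 CPM (log2 ratio 0.52, 0.11 to 0.92), Cish at 31.7 and 22.1 CPM (0.52, -0.15 to 1.20) and Pf4 at 394.3 and 2083 CPM (-2.40, -2.54 to -2.27). Among cells with fewer Vwf UMIs, 165 against 6521, Socs2 stood at 44.4 and 1.39 CPM (4.99, 4.59 to 5.40) and Cish at 17.5 and 3.91 CPM (2.16, 1.67 to 2.63). Among Vwf-positive cells the 0-UMI cells also held Socs2 and Cish, and the log2 ratio of Socs2 was smaller than in the rest. With 10 CPM added, the list medians among Vwf-positive cells were -0.75 for megakaryocyte, 0.12 for stem cell, -0.22 for lymphoid-primed and 0.52 for myeloid genes. Among cells with fewer Vwf UMIs they were 0.47, 0.51, -0.66 and -0.13. The higher megakaryocyte genes of the whole contrast were thus not seen among Vwf-positive cells. The 0-UMI cells of this division were not matched in depth.

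The retaining cells were not uniform, and 136 of 247 had no Vwf UMI. After thinning to 6200 UMIs, Vwf was detected in 34.7% (28.4 to 41.3%) of retaining cells, 2.99% of matched 0-UMI cells and 3.93% of control cells with at least 2 Stat5 UMIs, against 44.9%, 4.48% and 7.87% unthinned. Aldh1a1 was detected in 86 of 111 retaining cells with Vwf (77.5%) and in 52 of 136 without (38.2%), at medians of 13258 and 13359.5 UMIs. Vwf was detected in 57.0% of 107 retaining cells with Socs2 and 35.7% of 140 without, at medians of 14972 and 12829.5 UMIs. Aldh1a1 and Vwf were thus often found in the same retaining cells. This was also seen in the references. Aldh1a1 was detected in 40.0% of 55 matched 0-UMI cells with Vwf and 4.68% without. In depth-matched control cells it was detected in 44.4% of 18 cells with Vwf and 7.08% without. Dntt was concentrated in few of them, since the 25 cells with most held 89.8% of its UMIs.

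Cells on both sides of the threshold of 2 Stat5 UMIs held Socs2, Cish and Vwf. Just outside it, the 251 STAT5 KO cells with 1 Stat5 UMI (median 8295 UMIs) held 59.0 CPM of Socs2, 28.0 CPM of Cish, 127.8 CPM of Vwf and 135.0 CPM of Dntt. Just inside it, the 134 cells with 2 UMIs held 49.2 CPM of Socs2, 19.5 CPM of Cish, 91.4 CPM of Vwf and 125.5 CPM of Dntt. Cells with 3 UMIs held 75.3 CPM of Socs2 and 27.2 CPM of Cish, and cells with 4 or more held 52.4 CPM of Socs2 and 22.3 CPM of Cish. Socs2 and Cish showed no steady increase with the number of Stat5 transcripts. Dntt showed no steady decrease from 1 to 3 UMIs, at 135.0, 125.5 and 130.7 CPM. It stood at 19.7 CPM in the 43 cells with 4 or more. Since 25 retaining cells held 89.8% of the Dntt UMIs, few cells can move these levels. The 151 retaining cells with both Stat5 genes and the 96 with 1 of them held 52.7 and 65.4 CPM of Socs2, 22.8 and 21.6 CPM of Cish and 118.2 and 110.7 CPM of Vwf.

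Against depth-matched control cells with at least 2 Stat5 UMIs, which share the retaining cells with the contrast above, the lists differed again. Of 10853 genes with 20 UMIs, 2.47% were more than 1.5-fold higher in retaining cells and 2.52% lower. Megakaryocyte genes were higher in 8 of 12 (median 0.70) and erythroid genes in 9 of 12 (median 0.80), while myeloid genes were higher in 5 of 13 and lower in 2 (median 0.37). Stem cell genes were higher in 4 of 20 and lower in 1, Hlf (median 0.32), and lymphoid-primed genes were lower in 10 of 12 (median -0.97). STAT5 target genes were higher in 3 of 17, namely Socs2 (1.80), Ccnd1 (0.94) and Id1 (0.78), with a median of 0.24. Of these, Ccnd1 is also on the list of genes that separate the 2 KLS libraries. It was within 1.5-fold of the STAT5 KO 0-UMI cells, as given above. In stem cell genes the retaining cells were nearer to control than to their own 0-UMI cells, and in lymphoid-primed genes they were lower than both.

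Of 14 measured genes that separate the 2 KLS libraries, 10 were within 1.5-fold of the matched STAT5 KO 0-UMI cells, 1 was higher in retaining cells (Mt1) and 3 were lower (Wfdc17, Ccl9 and Mpo). Against matched control cells 7 of 15 were more than 1.5-fold higher and 7 lower, where 2.47% and 2.52% of all 10853 genes were. The list holds genes that separate the libraries, so a difference from control follows from its choice. Gm47283, annotated on the Y chromosome, stood at 68.9 CPM in retaining cells, 82.8 CPM in matched 0-UMI cells and 603.9 CPM in matched control cells. Its order turned among cells with Xist only, at 29.3 CPM in retaining and 10.5 CPM in 0-UMI cells. Mid1, on the X chromosome, stood at 0.269, 1.93 and 29.97 CPM, and Ebi3, an interleukin subunit gene, at 8.62, 8.26 and 42.1 CPM. The metallothionein gene Mt1 stood at 195.8, 71.1 and 12.7 CPM. Of the 247 barcodes 1 was shared with the control library, as given above. For Gm47283, Mid1 and Ebi3 the levels of retaining cells were far below those of control cells, and for Mt1 they were above those of both other groups.

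The defining markers of several mature cell types were at or near 0 in retaining cells. The summed level of 8 mature neutrophil genes was 4.85 CPM in retaining cells and 11.9 CPM in matched 0-UMI cells, with 3 genes at 0 in the retaining cells. B and plasma cell genes summed to 18.04 and 93.2 CPM (3 of 6 at 0, among them Ms4a1), and 1 matched 0-UMI cell held 99.4% of the Jchain UMIs in the second value. Macrophage and dendritic cell genes summed to 8.35 and 6.50 CPM (3 of 8 at 0), and stromal genes to 15.6 and 33.2 CPM (6 of 8 at 0). T and NK cell genes summed to 192.8 and 207.9 CPM, of which Nkg7 gave 181.8 and 204.4 CPM, while Cd3e stood at 0.539 and 0 CPM. Endothelial genes summed to 182.6 and 260.7 CPM, of which Egfl7 gave 116.9 and 190.3 CPM, and the defining gene Cdh5 stood at 0.269 and 0.0551 CPM.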

How the data were processed

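Single-cell RNA was measured with the 10x Chromium 3′ assay, chemistry version 3, per the labels' protocols. The authors deposited raw UMI counts of 31053 genes per barcode, with no normalization, made with Cell Ranger (software version 3.1.0, per the file headers) on GRCm38/mm10, per the submitters' processing notes. The strand rule is not given in the sources used here, so overlapping and antisense genes cannot be told apart with certainty. The KLS libraries held 7511 barcodes and 82466835 UMIs in STAT5 KO and 3747 barcodes and 55138419 UMIs in control. After the filter 7158 and 3193 cells were kept, with median depths of 10055 and 15455 UMIs. In all, 284 and 382 barcodes were left out because they occurred in a stromal library.

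Counts were summed over cells and scaled to CPM, with exact Poisson intervals for levels, Clopper-Pearson intervals for shares and conditional binomial intervals for ratios. Differences past 1.5-fold, lists and gene rankings used a pseudocount of 10 CPM, with at least 20 UMIs for lists and 100 UMIs for rankings. Named genes were the 10 largest log2 ratios in each direction with a UMI in at least 5% of the higher group's cells, without Stat5a, Stat5b, hemoglobin, immunoglobulin, Xist and Y-linked genes, and members of 23 lists. Other genes singled out (Vwf gates, Gm47283, Jchain and Ighm in 1 cell) were chosen after their values were seen. The members and lists were chosen with earlier results of these data known. Coordinates are from GENCODE M21, which held 31011 of the gene identifiers. Doublets were scored with Scrublet in scanpy 1.11.5 and kept in the main values, and TMM factors came from edgeR 4.0.16 in R 4.3.3. The code for ratios and intervals was checked on simulated counts of the STAT5 KO contrast, run on 9851 genes. The direction was recovered for 100% of 50 genes at each of 4-fold, 2-fold, 0.5-fold and 0.25-fold. The intervals held 1 for 95.33% of unchanged genes. The simulated counts were Poisson sums without spread between cells. This outcome therefore concerns the code only and cannot show whether the intervals suit the real cells. Alternatives changed the cell filter, doublets, shared barcodes, Stat5 threshold, matching, scaling, pseudocount, UMI minimum and kind of cell. Some genes of the lists are not reported here.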

Additional observations from a re-analysis of the deposited data

Results flagged for a closer look

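The G2 and mitosis genes moved oppositely in the 2 libraries. Their median log2 ratio of cells with at least 2 against 0 Stat5 UMIs was -0.17 in STAT5 KO, where 15 of 17 genes lay below 0, and 0.49 in control, where all 17 lay above 0. The difference of the medians was -0.66, and it was not tested, since each genotype has 1 library. No gene of the list was past 1.5-fold in STAT5 KO, and 1, Cenpe at 0.64, was in control.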

How the results depend on the processing

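For the main quantities, 16 alternatives gave 78 values within the counting error or tolerance of the reported value and 20 that moved, and no ratio within the STAT5 KO library changed sign among them. With at least 3 Stat5 UMIs the share of retaining cells was 1.58%, the Stat5 ratio to control 0.22, the Cish ratio 3.15 and the number of lower genes 234, and with both Stat5 genes required the share was 2.11%. The Stat5 ratio was -0.20 against depth-matched control cells and 0.30 with means of single-cell CPM. With 1 matched cell the Socs2 ratio was 6.16, and with 0-UMI cells weighted by stem gene count it was 3.69. The stem cell median was 1.06 with single-cell means, 0.98 with 1 matched cell, 0.75 with that weighting, 1.38 with a pseudocount of 1 CPM, 1.05 in cells with Y-linked transcripts only and 0.98 with Xist only. In the Xist-only cells the ratio was 3.23 for Cish and 5.17 for Socs2, and the STAT5 target median was 0.30. With a pseudocount of 1 CPM 544 genes were higher and 341 lower. Hlf turned to -0.091 under the stem gene weighting and Gm47283 to 0.94 in Xist-only cells. Of 495 alternative values for 33 named genes, 397 stayed, 96 moved and these 2 reversed. The median of all genes stayed between -0.02 and 0.03. The cause of these shifts was not tested. No paired analysis was possible because each group has 1 library. Depth limits low genes: a gene with 0 UMIs in the retaining cells may still stand at up to 0.808 CPM (3 counts).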

Other observations

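Genes outside the lineage lists differed as well. Immediate early and heat shock genes were more than 1.5-fold higher in 2 of 10 measured (median 0.22). These were Egr1, a growth factor response gene, at 100.4 CPM in retaining cells, 41.2 CPM in matched 0-UMI cells and 82.1 CPM in matched control cells, and Fosb at 43.4, 22.1 and 24.3 CPM. Mast cell and basophil genes were lower in 2 of 6 measured (median -0.37): Prss34 stood at 0.808 and 19.7 CPM and Mcpt8 at 10.5 and 23.8 CPM. Interferon-stimulated genes had a median of -0.07, with 1 of 11 lower. Over all genes 2.85% were higher and 1.24% lower.

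Next after the 10 genes furthest above the 0-UMI cells came, in order, Plxdc2, Gda, Gng11, F2r, S100a6 and Timp3. Plxdc2 stood at 30.2 CPM in retaining cells, 0.716 CPM in 0-UMI cells and 12.7 CPM in control, and F2r, the thrombin receptor, at 78.1, 15.7 and 33.2 CPM. Apoe, which encodes apolipoprotein E, stood at 503.0, 157.3 and 232.7 CPM.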
